A study of Mus musculus with 13 samples.

Results

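The wild-type right ventricle of the mouse is described here from 6 RNA sequencing libraries, those titled wild type 1 to wild type 6, out of 13 in the series. The members were chosen by title alone, and the other 7 libraries, from mice with the F536C substitution in Dsg2, the gene of the desmosomal cadherin desmoglein 2, were not used for any value below. That knock-in is a model of arrhythmogenic cardiomyopathy in which the study follows fibrosis, fat and arrhythmia with PPAR-gamma in view, and these 6 libraries are its wild-type reference. Total RNA was taken from the right ventricle with TRIzol, polyadenylated RNA was enriched, and stranded libraries were made. The labels give the tissue and the genotype, and give no strain, sex, age, litter, batch or part of the ventricle, nor whether each library came from a separate animal. The spread between libraries may therefore be partly technical, and this holds for every SD and p-value below. Library totals ran from 16154885 to 22180205 reads, and 26264 genes were listed in each.

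The right ventricle pumps blood into the lungs, and most of its volume is cardiomyocytes, muscle cells that contract with every beat and make nearly all their ATP by oxidation in mitochondria. Contraction runs on the sarcomere, in which myosin of the thick filament pulls on actin of the thin filament once calcium binds troponin, and calcium is released from and pumped back into the sarcoplasmic reticulum at each beat. Many of these proteins come in several paralogs encoded by separate genes, of which atria, ventricles, skeletal muscle and fetal heart use different ones. The unit of level is TPM, a measure of transcripts per length: reads divided by the effective length of the gene, then scaled to the same total in each library (1000000), so that genes can be compared with each other.

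The 4 cardiomyocyte markers were among the 100 most abundant genes. Tnnt2, cardiac troponin T, ran from 9506 to 12469 TPM with a median of 10515 and ranked 9 by mean TPM. Actc1, cardiac actin, ranked 31 (4327 to 6231 TPM, median 4614), Atp2a2, the calcium pump SERCA2, ranked 62 (2272 to 3317 TPM, median 2367), and Myh6, the alpha myosin heavy chain, ranked 78 (1762 to 2797 TPM, median 2020.1). Of 5 ventricular markers, 3 had a mean of at least 100 TPM and 2 of at least 1000 TPM, and the lowest had 5.44 TPM. The highest of them, the ventricular regulatory light chain Myl2, was the second most abundant gene listed. Defining genes of lung and airway epithelium and of thymus were at or near 0, and 2 of 9 skeletal muscle genes reached 1 TPM. Sftpc, Sftpb, Rag2, Foxn1 and the fast myosin gene Myh4 were at 0 in all 6 libraries, where 0 reads allow at most 0.135 to 0.186 CPM (reads scaled to a library total of 1000000). Cardiomyocyte markers were thus high in all 6 libraries, as the labelled heart tissue would have them. Atrial markers were present too: 4 of 6 had a mean of at least 100 TPM. Their sum ran from 695 to 4766 TPM and was highest in wild type 1. In bulk tissue, fewer cells of a type and less RNA per cell cannot be told apart.

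RNA of the listed genes was concentrated in few of them. Of the 26264 genes, 12562 (47.8%) had a mean of at least 1 TPM, 1052 (4.01%) of at least 100 TPM and 164 (0.624%) of at least 1000 TPM, while 7322 had no read in any library. The 20 most abundant genes held 24.2% ± 0.773 (SD, n = 6) of all TPM in a library, and 110 genes held 50% of the mean TPM (99 to 134 in single libraries). Protein-coding genes were 95.3% of the genes at 1 TPM or more and long noncoding RNA genes 3.65%.

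No mitochondrially encoded gene was among the 1052 genes with a mean of at least 100 TPM. Such genes were not analysed here, so this does not show that their RNA was low. Ranks and shares of TPM are those among the genes listed. The highest of these was Mb, myoglobin, the oxygen store of muscle, which ran from 31038 to 45046 TPM with a median of 39781. It was followed by Myl2 (22924 to 37665 TPM, median 25601) and by Cox6c, a subunit of cytochrome c oxidase (10888 to 16104 TPM, median 12784). Among the first 20 were 6 sarcomere genes (Myl2, Tpm1, Tnnt2, Tnni3, Tnnc1 and Myl3) and 8 genes of the respiratory chain or ATP synthase (Cox6c, Ndufa4, Atp5j2, Cox7a1, Cox8b, Atp5md, Atp5k and Atp5j). The other genes of the first 20 were Mb, the fatty acid carrier Fabp3, the SERCA inhibitor Pln, the nucleotide translocator Slc25a4, the translation-associated Tpt1 and the small noncoding RNA Bc1. Bc1 ranked 5 with 12761 TPM but came from 877 reads per library on average over an effective length of 4.03 bases, and it ranked 4064 by reads. It was the only gene at 1000 TPM or more with an effective length under 100 bases, and its level per length has little meaning.

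**Figure D1:**
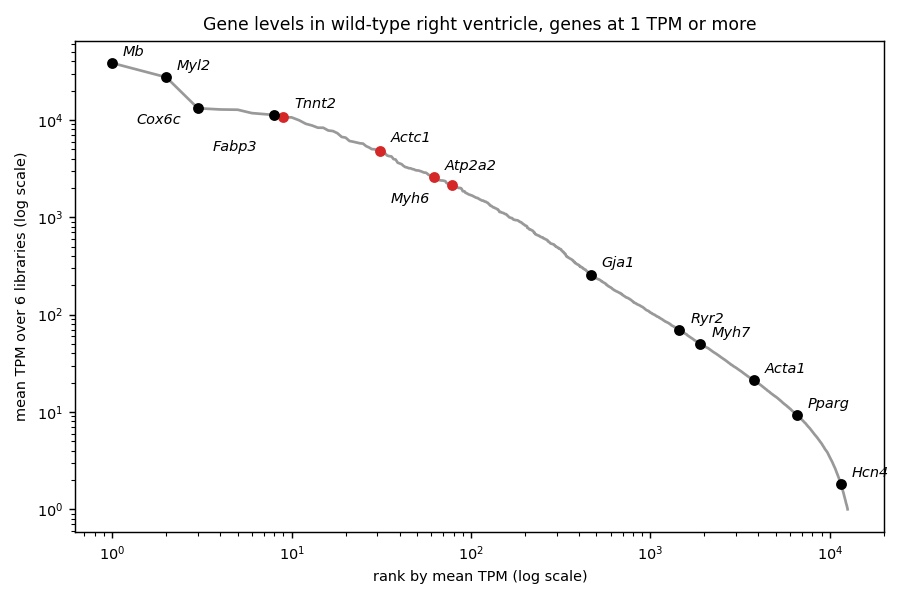
Mean TPM over the 6 wild-type libraries (vertical, log scale) against rank (horizontal, log scale) for the 12562 genes with a mean of at least 1 TPM; red points are the 4 cardiomyocyte markers and black points other named genes. Tnnt2, Actc1, Atp2a2 and Myh6 lie at ranks 9, 31, 62 and 78, and the curve falls from Mb at 38514 TPM to the pacemaker channel gene Hcn4 at 1.81.

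Long transcripts rose in the order when reads were ranked in place of TPM. Myh6, whose effective length is long, was the third gene by reads with 10953 ± 1497 CPM, after Mb and Pln. Atp2a2 moved from rank 62 to 7 and Actc1 from 31 to 12. Titin showed the same contrast: Ttn, the spring that spans the sarcomere, had 0.015 ± 0.00185 times the TPM of Myh6 but 0.218 ± 0.0272 times its reads (SD, n = 6). Of the 20 highest genes by TPM, 12 were also among the 20 highest by reads, and the 20 highest by reads held 15.6% ± 1.06 of all reads.

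Sarcomere genes, the 49 genes of the thick filament, thin filament and Z-disc lists, made up 9.90% ± 0.882 of all TPM (SD, n = 6) and 8.47% ± 0.527 of all reads. In the thick filament, Myl2 and Myl3, the regulatory and essential ventricular light chains, stood far above the heavy chain they bind: within a library Myl2 had 13.1 ± 3.03 times and Myl3 3.66 ± 0.526 times the TPM of Myh6. By reads, Myl2 and Myh6 were level, with a ratio of 1.01 ± 0.233. Myl3 ran from 6299.9 to 10537 TPM with a median of 7495. Mybpc3, the cardiac myosin-binding protein C that brakes the cross-bridges, ran from 355 to 528 TPM with a median of 368, and its ratio to Myh6 was among the steadier ones at 0.186 ± 0.0175. Of the genes that tie thick filaments at the M-band, Myom1 ran from 161 to 268 TPM with a median of 177, and Myom2 had 131 ± 39.4 TPM.

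Of the 14 thin filament genes, 7 exceeded 100 TPM and 5 exceeded 1000 TPM. Tpm1, tropomyosin, ran from 9961 to 14094 TPM with a median of 11397. Troponin I, the inhibitory subunit encoded by Tnni3, ran from 8495 to 12209 TPM with a median of 9679, and troponin C, the calcium-binding subunit encoded by Tnnc1, from 6204 to 10944 TPM with a median of 8746. The 3 troponin subunits, which assemble in equal numbers, were present at similar TPM: Tnni3 had 0.935 ± 0.114 times and Tnnc1 0.788 ± 0.179 times the TPM of Tnnt2. Tnnc1 was lowest in wild type 1 (6204 TPM) and wild type 2 (6235), and between 8406 and 10944 in the other 4. Actc1, the subunit of the filament itself, had 0.421 ± 0.0409 times the TPM of Tpm1. Neb, the giant nebulin of skeletal thin filaments, stood at 0.171 TPM, and Lmod2, which lengthens cardiac thin filaments, at 269 ± 46.9 TPM.

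Promoter sequence was read for the sarcomere genes to see what they share beyond level. RefSeq windows of build GRCm38.p6, from 250 bases before to 50 after the start, were found for 40 of the 49 genes, as 55 windows, and searched on both strands. The CArG box, the ten-letter element known as the binding site of serum response factor, was in 18.2% of the sarcomere windows, against 1.63% of all 32851 windows. The ten-letter MEF2 element was in 9.09% against 0.557%. In windows of genes with a mean of at least 10 TPM the shares were 1.60% and 0.671%. GGGCGG, the GC box, went the other way, with 29.1% of sarcomere windows against 35.7% of all windows and 63.2% of windows of genes at 10 TPM or more. TATAAA was in 12.7% of sarcomere windows, against 13.6% of all windows and 7.88% of windows of genes at 10 TPM or more. Windows of genes with several starts can overlap, and a match describes letters only, not binding.

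The CArG box lay before the start in 8 sarcomere genes, the MEF2 element in 5, and both in 0. The following 60-base stretches, each written 5′ to 3′ on the gene's strand with the element in capitals, are shown because the CArG box was in both Actc1 and Acta1, the cardiac and skeletal actins that differ most in level among the actins below, and in both Myl3 and Myl7, a ventricular and an atrial light chain.
Actc1, chr2:114052888-114052947, minus strand: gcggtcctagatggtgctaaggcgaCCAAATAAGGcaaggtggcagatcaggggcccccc
Acta1, chr8:123894814-123894873, minus strand: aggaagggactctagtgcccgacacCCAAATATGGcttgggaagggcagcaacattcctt
Myl3, chr9:110763568-110763627, plus strand: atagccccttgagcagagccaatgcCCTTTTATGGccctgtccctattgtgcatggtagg
Myl7, chr11:5898809-5898868, minus strand: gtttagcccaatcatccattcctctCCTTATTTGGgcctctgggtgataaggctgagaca
Myom1, chr17:71019433-71019492, plus strand: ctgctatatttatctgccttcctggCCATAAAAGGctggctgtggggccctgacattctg
The MEF2 element is shown for Mybpc3, for Ttn and for Myoz2, a Z-disc binder of calcineurin.
Mybpc3, chr2:91118029-91118088, plus strand: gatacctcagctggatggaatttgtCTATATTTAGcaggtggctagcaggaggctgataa
Ttn, chr2:76982679-76982738, minus strand: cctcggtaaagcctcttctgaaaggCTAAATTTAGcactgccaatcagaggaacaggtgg
Myoz2, chr3:123034988-123035047, minus strand: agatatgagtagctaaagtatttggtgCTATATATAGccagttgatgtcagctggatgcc
The 5 CArG genes above ranged in mean level from 21.1 TPM (Acta1) to 7809 TPM (Myl3), and the 3 MEF2 genes from 32 (Ttn) to 1661 (Myoz2).

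Z-disc genes all exceeded 10 TPM, 21 of 21, and 13 of 21 exceeded 100 TPM. Csrp3, the muscle LIM protein of the Z-disc, was highest (2218 to 3471 TPM, median 2975), followed by Fhl2, a LIM protein that binds titin (1563 to 3250.3 TPM, median 2558), and Tcap, which joins 2 titin molecules at the Z-disc (1528 to 2172 TPM, median 1869). Fhl2 was lowest in wild type 1, at 1563 TPM. The chaperone Cryab ran from 1366 to 2013 TPM with a median of 1676 and the intermediate filament gene Des from 409 to 651 TPM with a median of 448. Myoz2 varied least of these, with a coefficient of variation of 0.0753 after the counting part was taken off.

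Calcium cycling genes were led by Pln, phospholamban, the peptide that holds back SERCA2, which ran from 6096 to 8594 TPM with a median of 7939. Within a library Pln had 3.03 ± 0.547 times the TPM and 1.63 ± 0.271 times the reads of Atp2a2, the pump it inhibits. S100a1, a calcium sensor that binds both the pump and the release channel, ran from 1891 to 2902 TPM with a median of 2391. The release channel Ryr2 stood much lower per length, from 55.6 to 90.4 TPM with a median of 67.7, and so did the exchanger Slc8a1 (18.1 to 27 TPM, median 20.5) and the L-type channel pore Cacna1c (12.2 to 21 TPM, median 13.6). Casq2, the calcium store protein, and Trdn, triadin, which joins it to the release channel, had means of 535 ± 85.9 TPM and 668 ± 121 TPM. Of the 21 genes of this list, 20 exceeded 10 TPM, and Fkbp1b, which stabilises the closed release channel, was the exception at 2.17.

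Ion channels formed the lowest of the muscle lists, with a median of 9.66 TPM over 29 genes and 1 gene over 100 TPM. That gene was Gja1, connexin 43 of the gap junctions, which ran from 229.5 to 327 TPM with a median of 252. Among potassium channels, Kcnip2, the subunit that speeds the transient outward current, had 84.4 ± 15.2 TPM and its pore partner Kcnd2 13.7 ± 1.8 TPM. Kcnj11, the pore of the ATP-sensitive channel, had 46.7 ± 11.2 TPM. Pacemaker and low-voltage genes were scarce: Hcn4 had 1.81 ± 0.287 TPM and Cacna1g 2.16 ± 0.209 TPM.

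All 18 genes of the intercalated disc list, where cardiomyocytes join end to end, were at 1 TPM or more and 4 over 100 TPM. Popdc2, a membrane protein of the disc, was highest (164 to 273 TPM, median 179), followed by the catenins Ctnna1 (156 to 216 TPM, median 175) and Ctnnb1 (160.0 to 217 TPM, median 176). Desmosomal genes were lower: the linker desmoplakin, Dsp, ran from 63.5 to 142 TPM with a median of 77.2, and plakophilin 2, Pkp2, from 56.1 to 85 TPM with a median of 61.3. The N-cadherin gene Cdh2 ran from 61.7 to 96.1 TPM with a median of 67.1. All 16 disc genes at 10 TPM or more were highest in wild type 2, the library that was highest for 61.4% of all 6278 genes at that level, and 9 of 16 were after the length trend described further on was centred out, against 26.2% of all genes then.

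**Figure D2:**
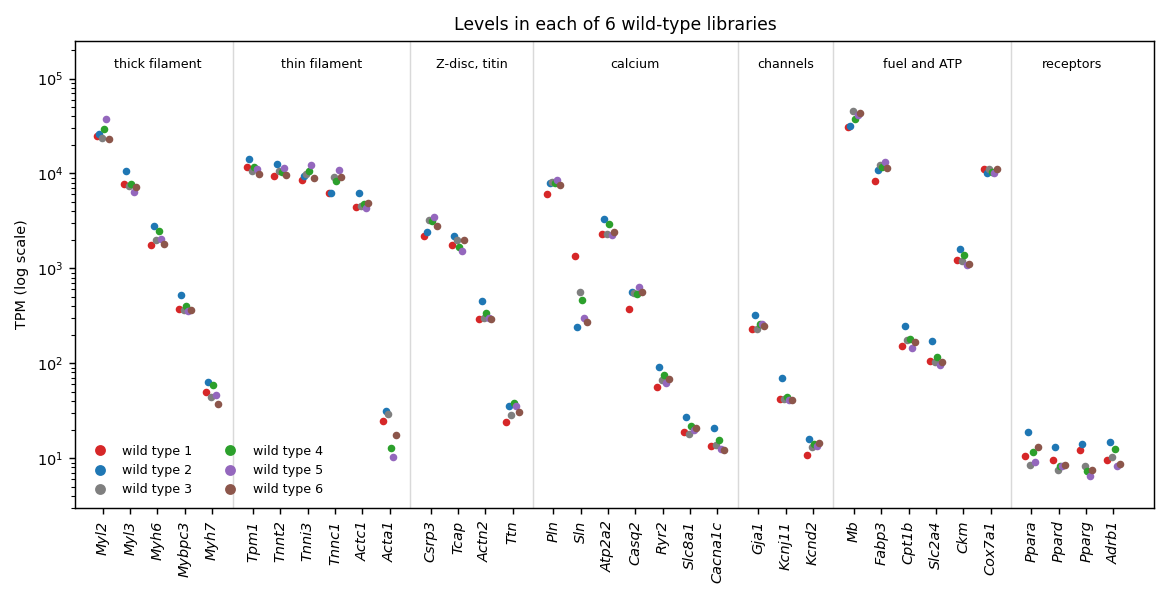
TPM (vertical, log scale) of 35 genes in each of the 6 wild-type libraries, one colour per library, grouped by role. Levels span from about that of Myl2 and Mb down to the PPARs and Adrb1, the 6 points of most genes lie close together, and Sln and Acta1 spread most.

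Genes of oxidative phosphorylation held the largest share of TPM among the pathway lists. The 79 nuclear-encoded subunits of the respiratory chain and ATP synthase made up 22.2% ± 1.13 of all TPM (SD, n = 6), though 8.93% ± 0.677 of all reads. All 79 exceeded 100 TPM and 52 exceeded 1000 TPM, against 0.624% of all genes. Ndufa4, assigned to cytochrome c oxidase, ran from 11213 to 14499 TPM with a median of 13044. Cox7a1, the heart and muscle form of subunit 7a, ran from 10011 to 11232 TPM with a median of 10650.1 and was among the steadiest of the abundant genes, with a coefficient of variation of 0.0522. The lowest of the list was Ndufa11, a complex I subunit, at 111 TPM. The median coefficient of variation of these genes was 0.111, against 0.140 over all 6278 genes at 10 TPM or more and 0.1275 over those at 50 TPM or more.

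Genes of fatty acid oxidation had a higher median level than those of uptake and storage, 445 against 53.1 TPM. The lists held similar shares of all TPM, 1.53% ± 0.164 for oxidation and 1.59% ± 0.193 for uptake and storage (SD, n = 6). Of 25 uptake and storage genes, 7 exceeded 100 TPM. Lpl, the lipase that frees fatty acids from lipoproteins, ran from 1766 to 2508 TPM with a median of 2149.9, and the membrane carrier Cd36 from 719 to 1385 TPM with a median of 1192. Inside the cell the carrier Fabp3 ran from 8291 to 13226 TPM with a median of 11459.7. Of 26 oxidation genes, 20 exceeded 100 TPM; the highest were Ech1, which moves double bonds (1908 to 3492 TPM, median 2859), Hadhb of the trifunctional protein (1167 to 2184 TPM, median 1705) and the thioesterase Acot13 (1297 to 1859 TPM, median 1644). Wild type 1 was the lowest library for the summed level of this list, 12148 TPM against 15339 to 16539.7 in the others. In the same library the white adipocyte marker sum was 753 TPM and the atrial marker sum 4766 TPM, both the highest of the 6; their part in the lower level was not tested.

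The cycle and shuttles that take up the products of oxidation were also abundant. Of 22 genes of the tricarboxylic acid cycle, 21 exceeded 100 TPM, led by Mdh1, the cytosolic malate dehydrogenase of the malate shuttle (2944 to 5306 TPM, median 4719.7), Sdhb of complex II (1411 to 1988 TPM, median 1747) and Idh3b (1157 to 2017 TPM, median 1718). Mdh1 was lowest in wild type 1 (2944 TPM) and wild type 2 (3122). Glucose genes were lower: the median over 26 genes was 139 TPM, against 445 for fatty acid oxidation and 577 for the cycle. Aldoa, aldolase (1282 to 1719 TPM, median 1459), and Ldhb, the heart lactate dehydrogenase (1127 to 1695 TPM, median 1248), were the 2 glycolytic genes with a mean over 1000 TPM. Slc2a4, the insulin-regulated glucose transporter, ran from 95.8 to 173 TPM with a median of 104.

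ATP is passed from mitochondria to myofibrils through phosphocreatine. Slc25a4, which exports ATP from mitochondria, ran from 5912 to 8314 TPM with a median of 7517. The mitochondrial creatine kinase Ckmt2 ran from 1691 to 2829 TPM with a median of 2525 and the cytosolic muscle form Ckm from 1079.7 to 1608 TPM with a median of 1211. Ckmt2 was 1.97 ± 0.484 times Ckm within a library. Mb was 3.43 ± 0.37 times Fabp3, a ratio whose range over the libraries was 2.94 to 3.87.

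Regulators were at low levels. Of 28 cardiac transcription factors and nuclear receptors, 27 were at 1 TPM or more, 19 at 10 or more and 0 at 100 or more. Esrra, a driver of mitochondrial genes, was highest (65.9 to 107 TPM, median 73.6), followed by Mef2a (56.1 to 80.2 TPM, median 59.9) and the thyroid hormone receptor Thra (44.7 to 77 TPM, median 56.5). Nkx2-5, the cardiac homeobox gene, ran from 45.9 to 80.8 TPM with a median of 48.2, and Gata4 from 28.6 to 47.7 TPM with a median of 34.3. Hand1, a gene of the embryonic left ventricle, had 0.00517 TPM, while Hand2, of the embryonic right ventricle, ran from 32.1 to 50.2 TPM with a median of 37.9.

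The 3 PPARs, nuclear receptors that turn on fatty acid genes, stood side by side. Ppara, the form known for fatty acid oxidation, ran from 8.57 to 18.7 TPM with a median of 11.2. Ppard ran from 7.51 to 13.3 TPM with a median of 8.38 and Pparg, the adipocyte form and the subject of the series, from 6.44 to 14.3 TPM with a median of 7.87. Pparg was highest in wild type 2 (14.3 TPM) and wild type 1 (12.2), and at 6.44 to 8.28 in the other 4. Their shares of the summed PPAR level were 39.1%, 30.6% and 30.4%. Of the 12 genes of the list of fasting genes and PPAR targets, 8 reached 10 TPM and 1 exceeded 100 TPM. Pdk4, which slows glucose oxidation, ran from 90.4 to 200.4 TPM with a median of 123, and Plin2, which coats lipid droplets, from 32.3 to 41.8 TPM with a median of 36.9. Angptl4, an inhibitor of Lpl, had 7.81 ± 3.27 TPM, and the hormone gene Fgf21 was at 0 in all libraries.

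Receptors for hormones were low as a group, with a median of 10.7 TPM over 21 genes and 0 over 100 TPM. Il6st, the shared receptor of the interleukin 6 family, was highest (41.9 to 58.7 TPM, median 48.6), then Npr3, which clears natriuretic peptides (20.2 to 26.8 TPM, median 22), and the insulin receptor Insr (18.7 to 25.9 TPM, median 19.8). Adrb1, the main cardiac beta-adrenergic receptor, ran from 8.3 to 14.8 TPM with a median of 9.97. Gcgr and Glp1r, the glucagon and incretin receptors, had means of 0.274 and 0.0915 TPM.

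Secreted factors were led by the natriuretic peptide gene Nppa, which ran from 137 to 1534 TPM with a median of 329.6, then Vegfb (330.3 to 417 TPM, median 381) and the second natriuretic peptide gene Nppb (194 to 477 TPM, median 225). Nppa was 1534 TPM in wild type 1 and at most 513 in the others, and Nppb was highest in wild type 6 at 477. Vegfb, a growth factor of coronary vessels, varied little, with a coefficient of variation of 0.0733. Ribosomal protein genes held 10% ± 0.894 of TPM and 4.25% ± 0.524 of reads (78 genes). Rpl41 (2783 to 3795 TPM, median 3426) and Rplp1 (2707 to 3999.8 TPM, median 3229) were among its most abundant members, and 49 of the 78 genes were highest in wild type 1, the library highest for 12.2% of all genes at 10 TPM or more. After every library was centred by length, as described further on, 38 of the 78 were highest in wild type 1 (23% of all genes) and 35 in wild type 5 (21.4% of all genes).

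Which paralog dominates was tested in 48 families, set up as pairs of a first and a second member, by an exact two-sided sign-flip permutation test over the 6 libraries of the log2 ratio of TPM + 0.1. The ratio is taken within a library and does not depend on its scaling. With 6 libraries the smallest p possible is 0.0312, or 0.0341 after Benjamini-Hochberg adjustment over all 48. Of these, 44 families are reported here, and 40 of the 44 reached it. In 37 of them the first member, mostly the form known from adult ventricle, was higher in 6 of 6 libraries, and in 3 the second. The families were chosen with earlier results of these data known. These counts are therefore partly set by that choice, and they describe agreement in sign among the 6 libraries. A mean ratio over 10-fold was found in 26 families and over 100-fold in 11.

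Sarcomere families were among the most one-sided. Myh6 exceeded Myh7, the slow beta myosin of fetal and stressed mouse ventricle, by a log2 ratio of 5.42 ± 0.16 (SD, n = 6; exact permutation test, adjusted p = 0.0341) and held 97.4% of the heavy chain TPM. Actc1 exceeded Acta1, the skeletal actin, by 7.94 ± 0.59, and Tnnt2 exceeded the slow skeletal Tnnt1 by 8.87 ± 0.31. Acta1 itself was lowest in wild type 5 (10.3 TPM) and wild type 4 (12.8) and highest in wild type 2 (31.6). The smooth muscle actin Acta2, at 75.8 ± 15.4 TPM, lay above Acta1 in every library. The fetal troponin I gene Tnni1 had 0.465 TPM against 9945 for Tnni3, and the fast troponin C gene Tnnc2 0.27 against 8341 for Tnnc1.

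Atrial paralogs set the wide spread of a few ratios. Myl2 exceeded the atrial Myl7 by a log2 ratio of 6.46 ± 1.02 and Myl3 exceeded the atrial Myl4 by 4.74 ± 1.05, and both ratios were lowest in wild type 1, at 4.63 and 3.21. Pln exceeded Sln, the atrial and skeletal SERCA inhibitor, by 4.13 ± 1.07, and by 2.18 in wild type 1. In the calcium store, Atp2a2 held 99.8% of SERCA TPM, Ryr2 99.7% of ryanodine receptor TPM and Casq2 99.5% of calsequestrin TPM.

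**Figure D3:**
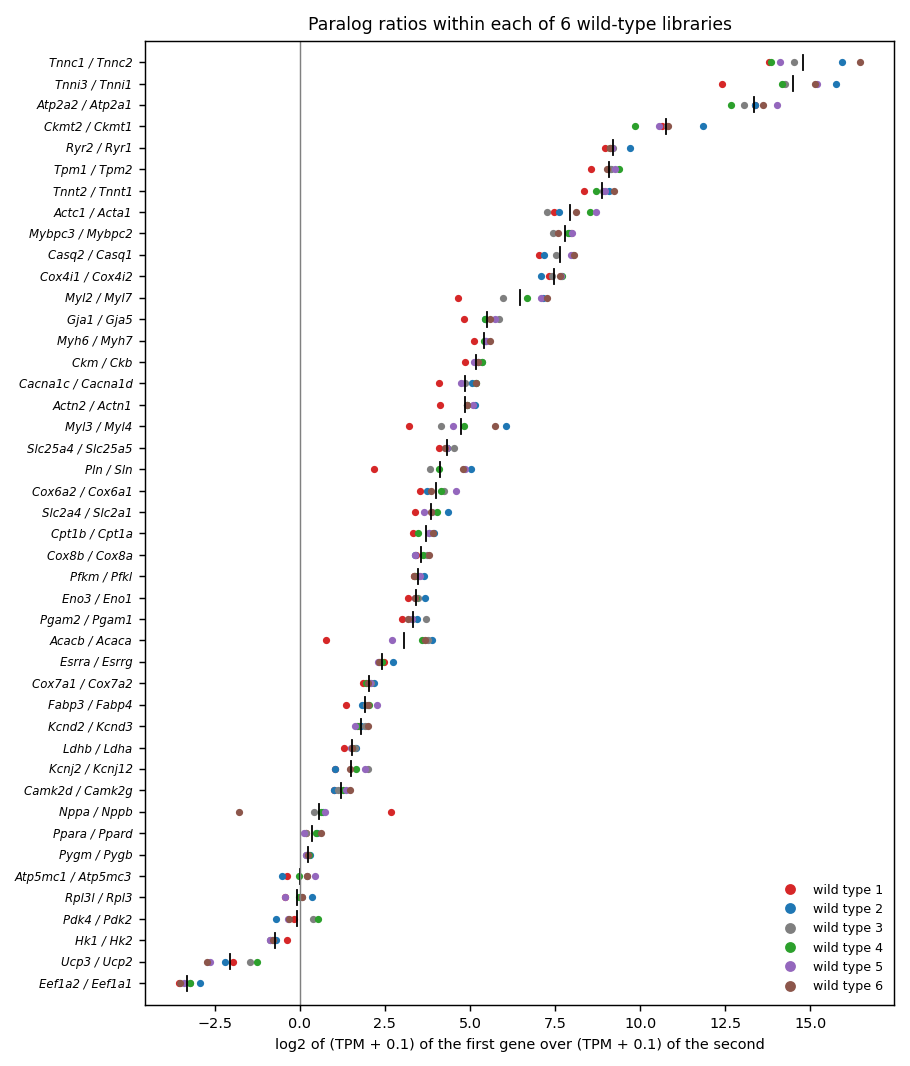
Log2 of (TPM + 0.1) of the first gene over (TPM + 0.1) of the second (horizontal) for the 44 families reported (vertical), ordered by their mean; points are the 6 wild-type libraries, one colour each, and black ticks are means. All 6 points lie to the right of 0 in 37 families and to the left in 3, and wild type 1 lies lowest for Pln over Sln, Myl2 over Myl7, Myl3 over Myl4 and Acacb over Acaca.

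Among channel and receptor families, Gja1 exceeded the atrial and conduction connexin Gja5 by a log2 ratio of 5.48 ± 0.37. Kcnj2, the main inward rectifier, exceeded Kcnj12 by 1.51 ± 0.41, and Kcnd2, the main pore of the fast transient outward current in mouse, exceeded Kcnd3 by 1.79 ± 0.15. Among the PPARs, Ppara exceeded Ppard by only 0.35 ± 0.21, in 6 of 6 libraries, and its difference from Pparg, 0.37 ± 0.38, did not pass the test (exact permutation test, adjusted p = 0.102).

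Several energy families favoured the muscle isoform. The log2 ratio was 4.01 ± 0.38 for Cox6a2 over Cox6a1, 2.02 ± 0.11 for Cox7a1 over Cox7a2 and 3.56 ± 0.19 for Cox8b over Cox8a, the heart forms of 3 cytochrome c oxidase subunits over their general forms. Cpt1b, the muscle gate of fatty acid entry into mitochondria, exceeded the liver form Cpt1a by 3.71 ± 0.25, and Slc2a4 exceeded the ubiquitous Slc2a1 by 3.86 ± 0.33. Muscle forms of phosphofructokinase (Pfkm), enolase (Eno3) and phosphoglycerate mutase (Pgam2) exceeded their general forms by 3.46 ± 0.12, 3.41 ± 0.16 and 3.32 ± 0.24. Ldhb exceeded Ldha, the form of anaerobic muscle, by 1.52 ± 0.13. Acacb, the carboxylase that restrains Cpt1b, exceeded the lipogenic Acaca by 3.07 ± 1.20, and by 0.77 in wild type 1, where Acaca was highest (13.2 TPM against a median of 2.44).

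In 3 families the second member was higher. Hk2, the hexokinase of adult striated muscle, exceeded the general Hk1 (log2 ratio of Hk1 to Hk2 -0.74 ± 0.19), Ucp2 exceeded the muscle Ucp3 (-2.05 ± 0.60), and the general elongation factor Eef1a1 exceeded the muscle and nerve form Eef1a2 (-3.31 ± 0.23), each in 6 of 6 libraries. Pygm and Pygb, the muscle and brain glycogen phosphorylases, were almost level, at 0.23 ± 0.05 with Pygm higher per length, while by reads the ratio was -0.21 ± 0.05 with Pygb higher. Genes with many pseudogenes or near-identical copies, such as Eef1a1 and the ribosomal proteins, may share reads, so their ratios are uncertain.

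The test was not passed in 4 families. Rpl3l, the striated-muscle form of ribosomal protein L3, and Rpl3 differed by -0.07 ± 0.31, with Rpl3l higher in 3 of 6 libraries (exact permutation test, adjusted p = 0.554). The ATP synthase subunit c genes Atp5mc1 and Atp5mc3, which encode the same mature protein, differed by -0.01 ± 0.38 (adjusted p = 0.969, exact permutation test). Pdk4 and Pdk2 differed by -0.10 ± 0.47 with Pdk4 higher in wild type 3 and 4 only. Nppa and Nppb differed by 0.56 ± 1.42, from -1.79 in wild type 6 to 2.68 in wild type 1.

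Variation among the libraries was described for the 6278 genes with a mean of at least 10 TPM by the coefficient of variation (CV) of TPM, SD over mean, after the part that counting reads would give was taken off. The median CV was 0.140, with quartiles of 0.101 and 0.180, and 43 genes (0.685%) had a CV over 0.5. The libraries resembled each other closely: the Pearson correlation of log2(TPM + 1) over 18942 detected genes was 0.9874 to 0.9955 for the 15 pairs, as a description over genes, which do not count as replicates. The chi-square of their reads per degree of freedom was at least 7.19 in every pair, so no library was a repeat of another. Of the 43 variable genes, 27 were highest in wild type 1 (12.2% of all 6278 genes were), 5 in wild type 2 (61.4% of all) and 5 in wild type 4 (5.02% of all).

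**Figure D4:**
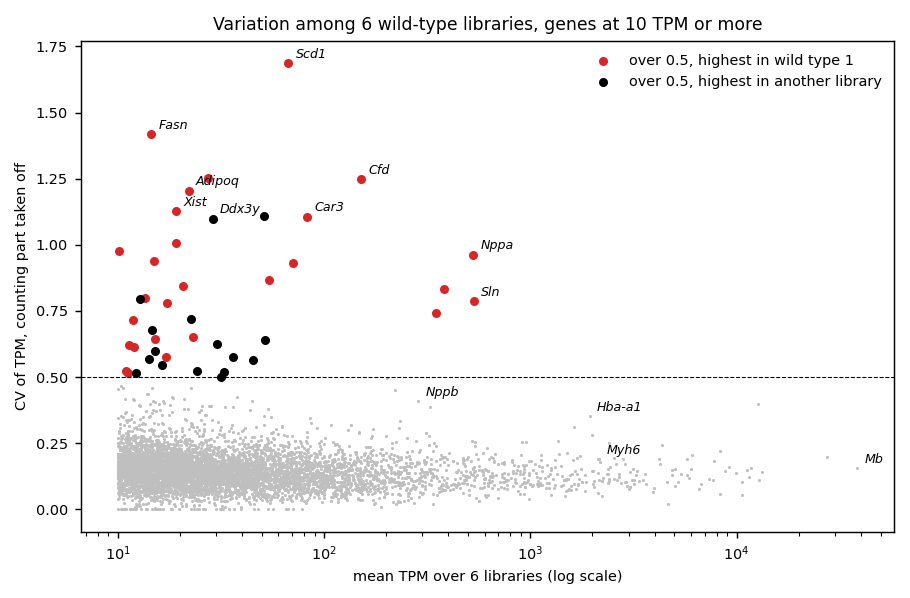
CV of TPM with the counting part taken off (vertical) against mean TPM (horizontal, log scale) for the 6278 genes with a mean of at least 10 TPM over the 6 libraries; grey points are at or under 0.5 (dashed line), red points over 0.5 and highest in wild type 1, black points over 0.5 and highest in another library. Scd1 stands highest at 1.69, and the abundant genes Nppa and Sln stand at 0.962 and 0.787.

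Fat cell and lipogenic genes were one group in the variable set. Scd1, the desaturase that makes monounsaturated fatty acids, was 297 TPM in wild type 1 and ran from 12.4 to 41.1 in the others. Fasn, fatty acid synthase, was 55.8 against 4 to 13.2, and Acly, which supplies its acetyl-CoA, 56.5 against 11.7 to 16.9. The adipocyte hormone genes showed the same order: Adipoq was 76.1 TPM against 7.29 to 17.4, and Cfd, adipsin, 533 against 52.3 to 98.5. Wild type 5 was the second highest library for Scd1, Fasn, Retn, Cfd, Adipoq, Car3, Cdo1 and Cidec. The lipid droplet gene Cidec, the citrate carrier Slc25a1, the lipogenic regulator Thrsp, the carbonic anhydrase Car3, the transketolase Tkt, the carboxylase Pcx and the adipocyte factor Cebpa were highest in wild type 1 too. All 6 white adipocyte markers were highest in wild type 1, their sum being 753 TPM there and 77.2 to 158 in the others. The brown fat gene Ucp1 had at most 2.3 TPM, in wild type 1.

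Atrial genes were the second such group, and the most abundant. All 5 atrial markers at 1 TPM or more were highest in wild type 1, and the list had a sum of 4766 TPM against 695 to 1894 in the others. Myl7 was 1010.3 TPM in wild type 1 and 148 to 384 elsewhere, and Sln 1347 against 243 to 566. Mybphl, an atrial and conduction-system protein related to myosin-binding protein C, was 34.2 against 3.76 to 14.9. Bmp10, a gene of the right atrium, stayed at or under 0.479 TPM in all 6. Hamp, hepcidin, and Dkk3, a secreted Wnt modulator, were also highest in wild type 1, at 26.1 and 53.8 TPM.

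Wild type 1 was also highest in the neutrophil list. S100a8 was 28.6 TPM there and 3.4 to 5.94 in the others, and S100a9, its partner in calprotectin, 24.1 against 2.53 to 5.76, while the defining genes Ly6g and Mpo were at 0 in all libraries. Summed neutrophil markers were 53.9 TPM in wild type 1 and 6.5 to 12.3 elsewhere. Without wild type 1, 21 genes had a CV over 0.5, 17 of them among the 43. Of the 6278 genes, 35 (0.558%) were at least 2-fold above the median of the other 5 libraries in wild type 1.

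Genes of the sex chromosomes formed a reciprocal pattern. Xist, the noncoding RNA of the inactive X, ran from 30.9 to 46.9 TPM in wild type 1, 4 and 5 and was at most 0.016 in wild type 2, 3 and 6. The Y-linked Ddx3y was 0 in wild type 1, 4 and 5 and ran from 55.5 to 62.4 in the others. Eif2s3y, Uty and Kdm5d followed Ddx3y. The labels give no sex. The libraries held both patterns, so the SDs and CVs given here include any difference between them. No test was made along this split.

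Markers of the outer lining of the heart, the mesothelium, were highest in wild type 4. Upk3b ran from 10.5 in wild type 2 to 46.4 TPM in wild type 4, and Msln from 6.71 to 32.5. Summed mesothelial and epicardial markers were 115 TPM in wild type 4 and 30.8 to 65.1 in the others. The smooth muscle list was highest in wild type 1 (232 TPM) and lowest in wild type 4 (138).

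Other variable genes were few. Ccl11, the eosinophil attractant eotaxin, ran from 6.27 to 27.5 TPM with a median of 11.7 with wild type 6 and 3 highest, and Hsd11b1, which regenerates glucocorticoid, from 14.3 to 69 TPM with a median of 29.9 with wild type 3 and 6 highest. Both were lowest in wild type 1. Ccl11, Hsd11b1 and Ifi205 were higher in each of wild type 2, 3 and 6 than in any of wild type 1, 4 and 5, as the Y-linked genes were. The ranges were 13.2 to 27.5 against 6.27 to 10.1 TPM for Ccl11 and 35.6 to 69 against 14.3 to 24.3 for Hsd11b1. For Ifi205 they were 31 to 55.7 against 15.1 to 28.5. This was seen after the values were known, and a link to that split was not tested. Erdr1 was 0.26 TPM in wild type 6 and at least 36.3 in the other 5. 5 variable genes had under 50 reads on average, among them Snord15b, where 4 reads at most gave up to 184 TPM over an effective length near 1 base. Hbb-bs, an adult beta-globin, was listed at 0 in wild type 5 and ran up to 89 elsewhere, while Hbb-b1 stood at 1384 TPM in wild type 5. The tables give Hbb-bt and Hbb-b2 identical values in every library, and 28 genes at 1 TPM or more shared all 6 values with another gene, so beta-globin levels are uncertain between copies.

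Wild type 2 differed in another way, across many genes by a small amount that followed transcript length. Its median log2 deviation of TPM from the 6-library median was -0.12 for the 350 genes with an effective length under 500 bases, 0.01 for the 810 of 500 to 1000 bases and 0.40 for the 1057 of 4000 bases or more. In the other 5 libraries these medians lay between -0.13 and 0.08. Centring took off the median deviation of each length bin in every library. It thus removed the overall offset of wild type 2 as well, a median log2 of 0.291 over the median of the others. After centring, wild type 2 was the highest library for 26.2% of the genes in place of 61.4%. That fall is partly fixed by the centring and does not show how much of the excess followed length. Of the long genes described above, Dsp and Ryr2 were highest in wild type 2, Ttn in wild type 4 and Fasn in wild type 1. The cause of the trend was not tested.

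Non-muscle cells of the ventricle left a clear trace. The summed endothelial and fibroblast levels varied little, but most of the endothelial sum came from 1 gene, Fabp4, with a mean of 2996 TPM. The 8 endothelial genes had a median CV of 0.186 and the 8 fibroblast genes 0.135, against 0.140 over all genes at 10 TPM or more. Endothelial markers summed to 3308 to 3945 TPM, led by Fabp4, the capillary fatty acid carrier (2725 to 3269 TPM, median 2970.4), which adipocytes express as well, and by Cav1 (233 to 302 TPM, median 247). Pecam1, which marks all endothelium, ran from 68.9 to 111 TPM with a median of 87.2. Fibroblast markers summed to 2266 to 2922 TPM, led by the matrix proteoglycan gene Dcn (1084 to 1494 TPM, median 1191) and by Gsn (831 to 1302 TPM, median 963). Collagen genes were far lower, Col3a1 at 84.5 ± 11.4 TPM and Col1a1 at 18.4 ± 2.11 TPM.

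Macrophage markers were steady as well, with a sum of 862 to 1067 TPM. Lyz2, lysozyme, ran from 462 to 652 TPM with a median of 609, the complement gene C1qa from 106 to 145 TPM with a median of 122, and the mannose receptor Mrc1, a gene of resident macrophages, from 18.1 to 19.6 TPM with a median of 18.6 with a CV of 0.0188. Pericyte markers summed to 607 TPM in wild type 2 and 319 to 362 in the others. Rgs5, the pericyte signalling regulator, was 502 in wild type 2 against a median of 293. All 4 pericyte genes at 10 TPM or more were still highest there after the length trend was centred out, when 26.2% of all genes were. Lymphocyte markers were near the floor, 1 of 7 at 1 TPM or more, with Cd79a of B cells at 2.11 ± 0.875 TPM and Cd3e of T cells at 0.136 ± 0.146 TPM.

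Red cell genes varied more than most lists, from 1429 TPM in wild type 5 to 3709 in wild type 2. Hba-a1, an alpha-globin, ran from 1141 to 2876 TPM with a median of 2020.4, and Alas2, the erythroid haem enzyme, from 5 to 17.1 TPM with a median of 9.8. Conduction-system markers were scarce, with a sum of 4.9 to 11.7 TPM and 2 of 5 genes at 1 TPM or more. Skeletal muscle markers summed to 9.14 to 12.6 TPM, of which Tnni2, the fast troponin I, gave 6.43 ± 1.59 TPM. That list leaves out the slow skeletal Tnnt1, at 23 ± 4.19 TPM, and the essential light chain gene Myl1, at 157 ± 32.8 TPM.

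**Figure D5:**
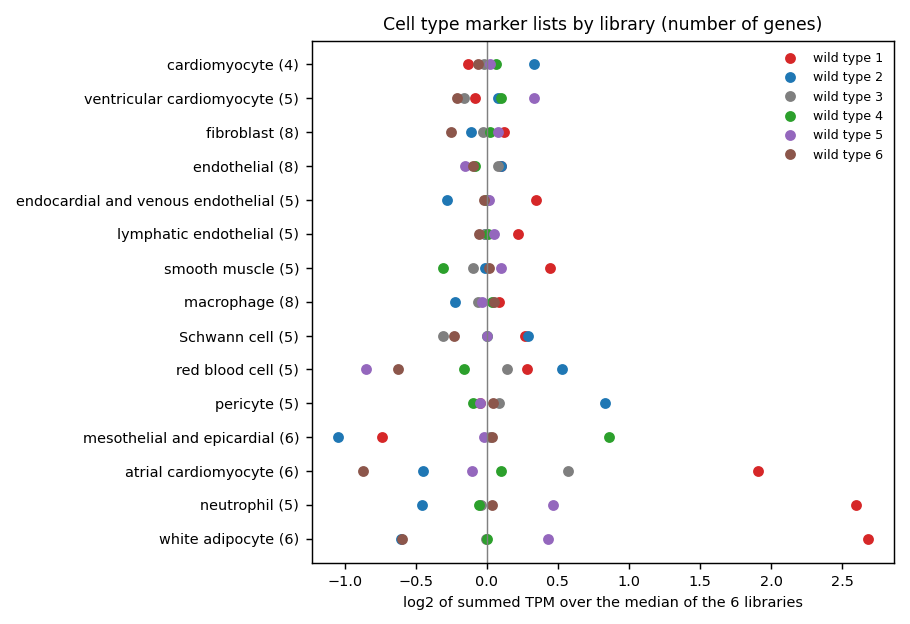
Log2 of the summed TPM of each cell type marker list over the median of the 6 libraries (horizontal) for 15 lists (vertical, number of genes in brackets), one colour per library. Wild type 1 lies far to the right for white adipocyte, neutrophil and atrial markers, wild type 2 for pericyte markers and wild type 4 for mesothelial markers, while fibroblast, endothelial and macrophage sums stay near 0.

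Genes that report on the state of the tissue at sampling were mostly at moderate levels. Immediate early genes, which rise within minutes of handling or stress, were led by Dusp1 (56.7 to 94.1 TPM, median 66.2) and Klf4 (17.5 to 47 TPM, median 30.6), with Fos at 6.76 ± 2.12 TPM. The 11 at 10 TPM or more had a median CV of 0.237, against 0.140 over all genes at that level, and 0 of them had a CV over 0.5, as 0.685% of all genes did. Among clock genes, which cycle over the day, Nr1d2 ran from 36.5 to 51.8 TPM with a median of 37.5 and Dbp from 13.7 to 35.7 TPM with a median of 18.3, with Dbp highest in wild type 6 (35.7 TPM) and Per1 highest in wild type 4 (9.87). Interferon-stimulated genes summed to 831 TPM in wild type 1 and 457 to 558 in the others, mostly from Ifi27l2a (213 to 570.2 TPM, median 298). Metallothionein Mt1, a glucocorticoid and metal response gene, ran from 246 to 307 TPM with a median of 265. The heat shock gene Hspa8, a constitutive chaperone, ran from 801 to 1282 TPM with a median of 966, while the inducible Hspa1a had 4.05 ± 2.56 TPM. Cell cycle genes were near the floor, with Mki67 at 0.926 ± 0.238 TPM and Top2a at 0.946 ± 0.151 TPM; the centromere gene Cenpa, at 29.9 ± 3.1 TPM, was the exception.

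The steadiest genes at 50 TPM or more were housekeeping genes of varied roles. Cmpk1, a nucleotide kinase, ran from 51.8 to 55.4 TPM with a median of 53.9, and Cops6, a subunit of the COP9 signalosome, from 218 to 234 TPM with a median of 221. Uqcr11, a complex III subunit, was the most abundant of the 10 steadiest, from 4571 to 4818 TPM with a median of 4653, with a CV of 0.0202. Timm10b, Ssna1, Malsu1, Pin4, Ranbp1, Mrps16 and Hint2 completed the 10, 6 of which varied no more than counting would give.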

How the data were processed

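Polyadenylated RNA of mouse right ventricle was sequenced from stranded libraries, per the labels' protocols. DRAGEN and build GRCm39 (mm39) are named in the submitters' processing notes, without version; annotation, quantifier settings and filters are not stated there. Each deposited gene table holds an estimated count of reads (expected count), TPM and effective length, per the file headers; TPM summed to 1000000 in each library, and 3.07% to 3.52% of estimated counts were not whole (tolerance 1e-09). Mitochondrially encoded genes were not analysed here, and ranks and shares of TPM are those among the genes listed.

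Levels are means, SDs and ranks of deposited TPM. Paralog ratios used TPM + 0.1 and the exact sign-flip test with an adjusted p under 0.05. The CV is the square root of CV squared minus 1 over mean reads, at least 0, for genes with a mean of at least 10 TPM. TMM factors and tagwise dispersions came from edgeR 4.0.16 and size factors from DESeq2 1.42.0 (R 4.3.3), on estimated counts rounded to whole numbers; other steps used Python 3.11.15, numpy 2.4.6 and pandas 2.3.3. The CV was tested on simulated counts. The 45 lists (16 pathway, 8 state and 21 cell type lists) and 48 families were chosen with earlier results of these data known; 2 list members were not matched, 15 matched through RefSeq synonyms. Some genes of these lists, and 4 of the families, are not reported here. Promoters and gene classes are RefSeq's, GRCm38.p6, used for sequence and names, not for the tables' coordinates.

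Named genes were the 4 markers, the 20 highest genes, the first 2 members of each family, the 3 highest of each pathway list, the 2 highest and 2 most variable of each other list, and the 20 most and 10 least variable genes (230 in all); some are given in counts only, and further list members were named after their values were seen. Alternatives were other scalings, filters, pseudocounts, comparators and thresholds, and leaving out each library.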

Additional observations from a re-analysis of the deposited data

Results flagged for a closer look

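A library was set apart for a value where the gap from the highest or the lowest library to its nearest neighbour, divided by the range of the 6 libraries, was above Dixon's critical value for 6 values. Chance sets apart a library in about 1 in 20 groups of 6. Over all 6278 genes with a mean of at least 10 TPM the share was 15.2% (953 genes), of which 769 had wild type 2 as the highest library and 82 had wild type 1. Named genes include the 20 most variable genes and the most variable of each state and cell type list, chosen on the same 6 values. That such genes pass this rule was therefore largely fixed by the choice. Of the 213 named genes, 52 passed, 30 of them highest in wild type 1 and 18 in wild type 2. These counts are given beside the background as a description only. The part of the length trend of wild type 2 in the background was not tested gene by gene.

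In wild type 1, fat and lipogenic genes stood apart as highest. Scd1 was at 297 TPM, Fasn at 55.8, Acly at 56.5, Acaca at 13.2, Slc25a1 at 43.8, Thrsp at 149, Tkt at 44.6 and Pcx at 25.6. Of adipocyte genes, Adipoq was at 76.1 TPM, Retn at 96.6, Cfd at 533, Cidec at 29.9, Car3 at 267, Cdo1 at 58.1, Cebpa at 23.1 and Ucp1 at 2.3, and the white adipocyte list summed to 753 TPM.

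Atrial genes stood apart in the same library, with Nppa at 1534 TPM, Sln at 1347, Myl7 at 1010.3 and Mybphl at 34.2, and a list sum of 4766 TPM. The list of secreted factors, which holds Nppa, summed to 3054 TPM there. The neutrophil genes S100a8 and S100a9 were at 28.6 and 24.1 TPM (list sum 53.9), and the lymphocyte list summed to 7.12 TPM with Cd3e at 0.424. Interferon-stimulated genes summed to 831 TPM with Ifi27l2a at 570.2, and lymphatic endothelial genes to 124 TPM. Acta2 was at 105 TPM, Eef1a1 at 1601, Dkk3 at 53.8, Hamp at 26.1, Tnni1 at 1.46 and Hand1 at 0.031.

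Wild type 1 was set apart as the lowest library for 4 muscle lists: Z-disc and titin genes summed to 11994 TPM, fatty acid oxidation genes to 12148, fatty acid uptake and storage genes to 12125 and tricarboxylic acid cycle genes to 14029. Casq2 was lowest there at 373 TPM, and the log2 ratio of Actn2 to Actn1 at 4.11. The log2 ratio of Hk1 to Hk2 was highest there, at -0.38.

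Wild type 2 was set apart as highest for 18 of the 213 named genes, against 769 of all 6278 genes, so the share of named genes was no larger than that of all genes. Of sarcomere genes, Actc1 was at 6231 TPM, Myl3 at 10537, Mybpc3 at 528 and Des at 651. Of channel and disc genes, Gja1 was at 327 TPM, Kcnj11 at 69.4, Dsp at 142 and Popdc2 at 273, with list sums of 929 for channels and 1472 for the disc. Of energy genes, Cpt1b was at 249 TPM, Slc2a4 at 173, Pfkm at 348, Pgam2 at 675 and Pdk2 at 202. Regulators there were Esrra at 107 TPM, Nkx2-5 at 80.8, Ppard at 13.3 and Dusp1 at 94.1, and the list of transcription factors and nuclear receptors summed to 919. Rgs5 was at 502 TPM with a pericyte sum of 607 and the log2 ratio of Ryr2 to Ryr1 at 9.71, all highest in wild type 2, and Lyz2 was lowest there at 462 TPM.

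In the other libraries, Per1 was set apart in wild type 4 at 9.87 TPM and Cops6 in wild type 3 at 234 TPM, the latter within one of the narrowest ranges of all genes.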

How the results depend on the processing

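Length scaling was the choice that moved levels most. By reads in place of TPM, the 20 highest genes held 15.59%, and with TMM-scaled reads the sarcomere, respiratory and ribosomal lists held 8.487%, 8.964% and 4.259%. Among paralogs, the ratio of Pygm to Pygb reversed by reads, to -0.209, and the other 43 reported families kept their call. With the highest other member as comparator, Ppara over Pparg, at 0.367, did not pass, and with a pseudocount of 0.01 or 1 TPM all 44 reported families kept their call. The test was not run on 5 libraries, since it could not reach the threshold.

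The count of genes with a CV over 0.5, 43, was 178 with a minimum of 1 TPM, 11 with 50 TPM, 167 at a CV threshold of 0.3 and 25 with edgeR's tagwise biological CV, whose filter left out 9 of the 43. Leaving out each library gave 21 to 47, the lowest without wild type 1. With TMM or DESeq2 scaling 40 genes passed, 39 of them the same genes. Centring by effective length, chosen after seeing the data, gave 42 genes, 41 of them the same. Over genes at 10 TPM or more the lowest correlation between 2 libraries was 0.9696. No paired analysis was possible because a single group is described and no groups are compared. Depth limits the scarce genes: 0 reads in a library allow up to 0.135 to 0.186 CPM, for counting error only.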
